A study of Mus musculus with 9 samples.

Results

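The 36 genes described here encode the core machinery of macroautophagy, its cargo receptors and the transcription factor Tfeb. They were found by gene name among the 24537 gene names of a table that compares sham quadriceps with sham heart, and all 36 were present, with 54 of its 35745 transcripts. For each gene the transcript with the highest summed count was used, and 26 genes had 1 transcript only. The study asked which secreted factors skeletal muscle makes in heart failure. It used male wild-type C57Bl6 mice (C57Bl/6JCrl in the study's methods) that had surgery at 8 weeks of age and were examined 12 weeks later. The groups compared were sham-operated heart (n = 3 libraries) and sham-operated quadriceps muscle (n = 3 libraries), neither of which carried a constriction, a transgene or a drug. A further group, quadriceps after transverse aortic constriction (TAC, n = 3), is not analysed here, since the table of 587 genes for that group holds 0 of the 36.

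Macroautophagy encloses cytoplasm in a double membrane, the autophagosome, and delivers it to the lysosome. The Ulk kinase complex starts the process, and a lipid kinase complex built on Becn1 and Pik3c3 marks the membrane. Atg2 and Atg9 proteins then supply lipid. Ubiquitin-like conjugation systems attach small Atg8-family proteins (the Lc3 and Gabarap proteins) to the growing membrane, where receptors such as Sqstm1 or the mitochondrial protein Bnip3 tether their cargo. In striated muscle this route clears damaged mitochondria and long-lived proteins, and in skeletal muscle it is induced by fasting.

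Among these genes, 5 were higher in quadriceps and 3 were lower under every way of processing that was tried (17 settings besides the reported one). That is 13.9% and 8.33% of the 36, against 12.5% higher and 26.7% lower among 11665 genes that gave a value in every setting. The 5 higher genes were Atg4a (4.19-fold), Bnip3 (3.56-fold), Atg101 (3.14-fold), Sqstm1 (2.17-fold) and Ulk2 (2.16-fold). The 3 lower genes were Map1lc3a (1.90-fold), Atg2a (1.76-fold) and Uvrag (1.52-fold). The direction of many of the other genes depended on how the libraries were scaled to each other, as described next. Except for the exact permutation test on ratios, the p-values below weigh the difference between tissues against the spread between the 3 libraries of a tissue. That spread was estimated with information shared across transcripts.

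Library totals were 23383452 to 38382751 counts. Libraries of the same tissue correlated at 0.983 or more (Spearman, over transcripts) and those of different tissues at 0.840 or less. All 7 cardiomyocyte markers were lower and all 7 fast-fibre markers higher in quadriceps, which goes with the tissues that the labels name. The 10 most abundant transcripts took 15.6 to 18.5% of the counts in quadriceps and 11.5 to 12.0% in heart. TMM scaling, which sets most transcripts level between tissues, gave a median log2 difference of −0.06 over the 24280 transcripts tested. Scaling by library totals gave −0.80. Values are TMM-scaled counts scaled to a common library size (CPM) and log2 differences are quadriceps minus heart, unless stated otherwise. The heart libraries were not alike in every marker. In heart replicates 1, 2 and 3, Myl7 gave 43.6, 3.26 and 0.070 CPM and Nppa gave 457, 398 and 186 CPM. The other cardiomyocyte markers had a coefficient of variation of 8.22% or less in heart. In bulk tissue, fewer cells of a type and less RNA per cell cannot be told apart.

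In edgeR (quasi-likelihood test, p adjusted by Benjamini-Hochberg across the whole table), 16 of the 36 genes (44.4%) were called higher in quadriceps, against 32.2% of all transcripts tested. A further 7 genes (19.4%) were called lower, against 34.4% of all transcripts, and 13 were not called. At a log2 difference of at least 1, 5 genes (13.9%) were higher, against 16% of all transcripts, and 0 were lower, against 20.5%; the lowest of the 36 was at −0.93, so that no p-value threshold gives another count. With library totals, 5 genes (13.9%) were higher, against 13.3% of all transcripts, and 24 (66.7%) were lower, against 62.6%. The median log2 difference of the 36 genes was 0.24 with TMM and −0.51 with library totals. All 36 passed the filter on low counts, and their counts ran from 67 (Atg4a) to 8772 (Sqstm1) in a library. The tissues did not overlap for 23 of the 36 genes, against 72.6% of all transcripts. The plot of differences by role shows both scalings side by side.

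**Figure D1:**
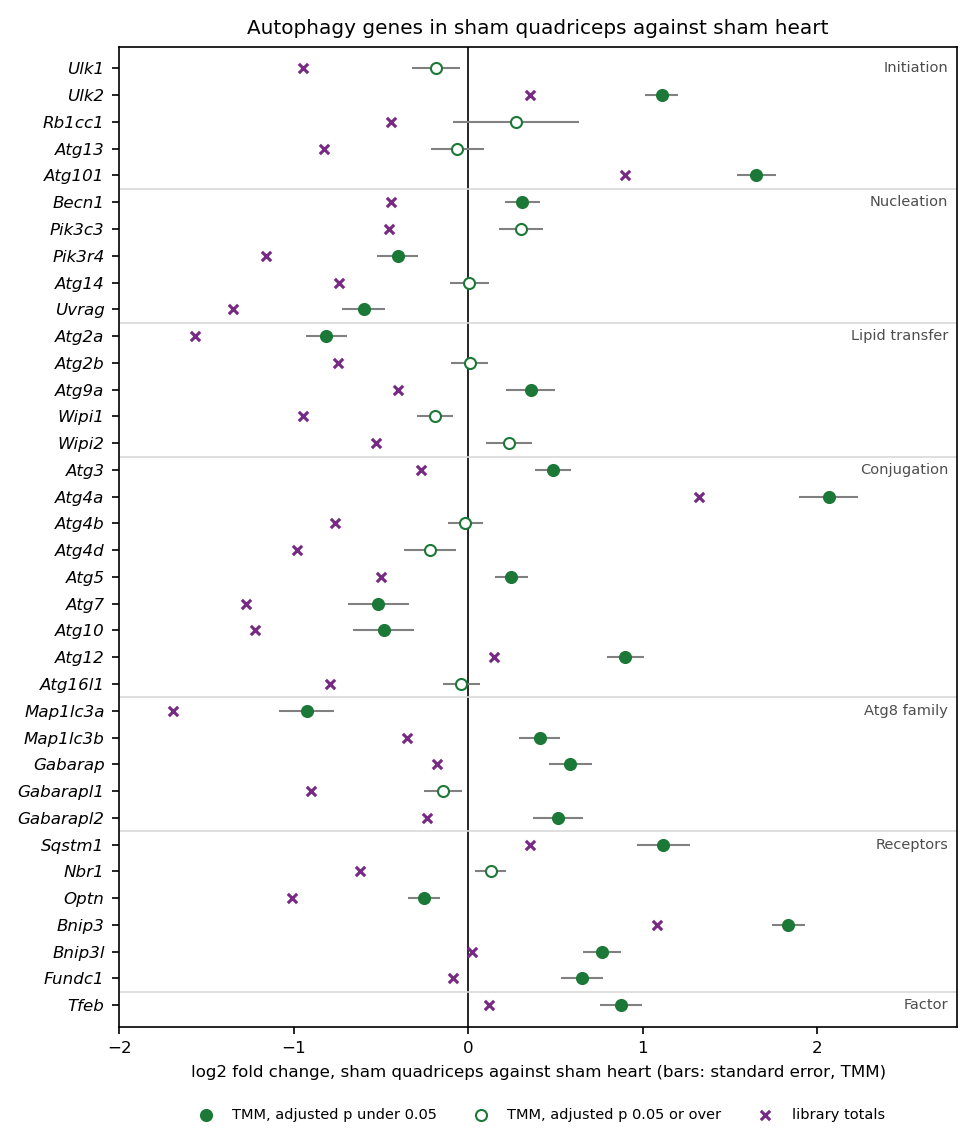
The 36 autophagy genes are ordered by role, and the x axis gives the log2 difference between sham quadriceps and sham heart (n = 3 libraries each). Circles are TMM values with their standard error (filled where the adjusted p is under 0.05) and crosses are values scaled by library totals. Ulk2, Atg101, Atg4a, Sqstm1 and Bnip3 are filled and have both markers to the right of 0, while the crosses lie to the left of the circles for every gene.

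Sequences before the transcription start show what the proximal promoters of the most different genes look like. RefSeq windows of GRCm38.p6, running from 250 bases before to 50 bases after the start, were matched for 29 of the 36 genes (33 windows). There was no entry for Map1lc3a, Atg16l1, Rb1cc1, Becn1, Atg12, Bnip3l or Pik3c3. The 120 bases before the start are printed 5′ to 3′ on the gene's strand for 3 of the genes that were higher in quadriceps, with each CG dinucleotide in capitals. Bnip3 lies at chr7:138909507-138909626 (minus strand), Atg101 at chr15:101284181-101284300 (plus strand) and Atg4a at chrX:140956787-140956906 (plus strand, of 2 listed starts, the one nearer the annotated 5′ end of the gene).
Bnip3: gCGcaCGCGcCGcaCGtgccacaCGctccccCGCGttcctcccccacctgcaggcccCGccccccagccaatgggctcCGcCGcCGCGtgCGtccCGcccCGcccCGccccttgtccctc
Atg101: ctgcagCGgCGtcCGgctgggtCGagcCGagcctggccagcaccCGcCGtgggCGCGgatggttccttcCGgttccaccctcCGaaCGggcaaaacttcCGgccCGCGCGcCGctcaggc
Atg4a: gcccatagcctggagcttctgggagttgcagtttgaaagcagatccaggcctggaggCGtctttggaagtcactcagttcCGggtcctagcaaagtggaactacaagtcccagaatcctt
The Bnip3 and Atg101 stretches each hold 17 CG dinucleotides and the Atg4a stretch holds 2. Over the full windows, the 33 promoters of these genes held a median of 20 CG dinucleotides (range 3 to 55), against 13 over 21263 protein-coding promoters and 7 over all 32851 promoters.

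The E-box CACGTG is the core of the element that Tfeb and related factors bind in lysosomal and autophagy genes. It reads the same on both strands. It was present in the windows of 5 of the 29 genes (17.2%), against 8.09% of all 27025 genes in the reference. Each occurrence is printed with the bases beside it, 5′ to 3′ on the gene's strand, with the E-box in capitals. Atg3 holds it at 2 places. For Atg7 and Atg14 the listed start lies inside the annotated gene, and so does the stretch printed. Their spans are chr6:114643097-114860614 (plus strand) and chr14:47540893-47570649 (minus strand). These E-boxes are therefore not at the annotated 5′ end of the gene.
Bnip3, chr7:138909598-138909625, minus strand: cgcacgcgccgCACGTGccacacgctcc
Atg3, chr16:45158724-45158751, plus strand: cctccttttgtCACGTGtcctgggagag
Atg3, chr16:45158747-45158774, plus strand: gagagtcgagtCACGTGaggccttaggt
Atg5, chr10:44268314-44268341, plus strand: ggagcgcttgcCACGTGgtcttggtgac
Atg7, chr6:114670953-114670980, plus strand: atattggtggtCACGTGtgcagtaagtg
Atg14, chr14:47568419-47568446, minus strand: aaacaaaatccCACGTGactggccctga
The E-box of Bnip3 begins 108 bases before the start. The 8-base form TCACGTGA, which contains the E-box, occurred in 1 of the 29 genes, Atg3 (around the E-box that begins 71 bases before the start), and in 1.12% of all genes. The FoxO element GTAAACA, searched on both strands, was found in 0 of the 29 genes and in 4.05% of all genes. Counted by window, the E-box, the 8-base form and the FoxO element were in 15.2%, 3.03% and 0% of the 33 windows. Over the 21263 protein-coding promoters, these shares were 7.84%, 1.23% and 3.01%. With TMM, the 5 genes with an E-box were split between higher (Bnip3, Atg3 and Atg5), lower (Atg7) and not called (Atg14).

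In the initiation complex, the kinase Ulk2 and the subunit Atg101 were higher in quadriceps, whereas the kinase Ulk1 and the scaffold Atg13 were not called with TMM. Ulk2 (chr11:61775649-61855073 on GRCm38) gave 58.8, 61.5 and 59.3 CPM in heart and 121, 133 and 134 CPM in quadriceps. The tissues were well apart and the libraries of each lay close together. The log2 difference was 1.11 (SE 0.094, adjusted p = 6.44e-06) with TMM and 0.36 (adjusted p = 0.00471) with library totals.

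Atg101 (chr15:101284272-101290945), which steadies Atg13 in the complex, gave 5.06, 5.84 and 5.89 CPM in heart and 16.3, 18.8 and 17.7 CPM in quadriceps. The lowest quadriceps library was well above the highest heart library. Its log2 difference was 1.65 (SE 0.11, adjusted p = 1.61e-06) with TMM and 0.90 with library totals. The mean level of Ulk1 was 31.1 ± 2.2 CPM in heart and 27.3 ± 5.1 CPM in quadriceps (SD, n = 3). Its log2 difference was −0.19 (adjusted p = 0.252) with TMM and −0.95 (adjusted p = 0.000144) with library totals. Without quadriceps replicate 2 the TMM difference of Ulk1 was −0.35 (adjusted p = 0.0116), so that library decided the call. Atg13 differed by −0.06 with TMM (adjusted p = 0.729) and by −0.82 with library totals.

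Rb1cc1, the large scaffold also known as Fip200, stood apart for its spread. It gave 51.6, 50.8 and 49.5 CPM in heart and 94.1, 25.2 and 64.1 CPM in quadriceps. Quadriceps replicate 2 was below every heart library and replicate 1 was far above them, so the groups overlapped. Its coefficient of variation of 56.6% in quadriceps was the largest of the 36 genes, whose median was 12.1% in quadriceps and 4.17% in heart. The log2 difference was 0.27 (SE 0.36, adjusted p = 0.520). It was 0.65 (adjusted p = 0.00420) without quadriceps replicate 2 and −0.17 (adjusted p = 0.617) without quadriceps replicate 1.

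In the lipid kinase complex most differences were small with TMM, while all 5 genes were called lower with library totals. Uvrag (chr7:98885021-99141141), the subunit that marks the complex acting on later membranes, was lower in quadriceps under both scalings. Its levels were 9.85, 10.2 and 10.5 CPM in heart and 6.32, 6.10 and 7.80 CPM in quadriceps, with no overlap. The log2 difference was −0.60 (SE 0.12, adjusted p = 0.00182) with TMM and −1.35 with library totals. Atg14, the subunit of the complex that acts on early autophagosomes, was level between tissues with TMM at 6.69 ± 0.50 and 6.72 ± 0.14 CPM (SD, n = 3) and was lower with library totals (−0.74).

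With TMM, the other 3 genes of the complex sat close to the threshold. The kinase Pik3c3 differed by 0.30 (adjusted p = 0.0601) with TMM and was called without quadriceps replicate 1 (0.45, adjusted p = 0.00226). With library totals Pik3c3 was called lower (−0.46, adjusted p = 0.00486). The regulatory subunit Pik3r4 was lower by both scalings, with a TMM difference of −0.40 (adjusted p = 0.0123). That call was lost without heart replicate 1 (adjusted p = 0.0513) or quadriceps replicate 3 (adjusted p = 0.0537). The scaffold Becn1 was called higher with TMM (0.31, adjusted p = 0.0217) and lower with library totals (−0.44, adjusted p = 0.00306). Its TMM call was lost without heart replicate 1 (adjusted p = 0.0811), heart replicate 2 (adjusted p = 0.0858) or quadriceps replicate 3 (adjusted p = 0.0682).

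Of the genes that bring lipid to the growing membrane, the lipid transfer protein gene Atg2a (chr19:6241668-6262335) was lower in quadriceps. It gave 15.9, 16.5 and 14.9 CPM in heart and 7.79, 9.82 and 9.38 CPM in quadriceps. Each quadriceps library was below each heart library. The log2 difference was −0.81 (SE 0.12, adjusted p = 0.000215) with TMM and −1.57 with library totals. Its paralog Atg2b was at 13.7 ± 0.13 CPM in heart and 13.8 ± 1.4 CPM in quadriceps (SD, n = 3) and was not called with TMM.

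The scramblase gene Atg9a was called higher with TMM (0.36, adjusted p = 0.0438) and lower with library totals (−0.40, adjusted p = 0.00963). Its TMM call was lost on leaving out any 1 library other than quadriceps replicate 1, with adjusted p between 0.0663 and 0.131. It was also lost with no count filter, with at least 10 counts in every library and with transcripts summed. Wipi1 and Wipi2, which bind the lipid the kinase makes, differed by −0.19 (adjusted p = 0.127) and 0.23 (adjusted p = 0.146) with TMM. With at least 10 counts in every library Wipi1 was called lower (−0.26, adjusted p = 0.0417). Without quadriceps replicate 1 the difference of Wipi2 was 0.39 (adjusted p = 0.00601). With library totals both were lower in quadriceps, by −0.95 and −0.53.

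Among the conjugation enzymes, the largest TMM difference of all 36 genes was that of Atg4a, a protease that trims Atg8-family proteins. Atg4a (chrX:140956907-141164270) gave 1.41, 1.95 and 1.91 CPM in heart and 8.38, 6.77 and 6.84 CPM in quadriceps. These are low levels, resting on 67 or more counts a library, but the tissues were far apart. The log2 difference came to 2.07 (SE 0.17, adjusted p = 5.30e-06) with TMM and 1.32 (adjusted p = 0.000399) with library totals. Its relatives Atg4b and Atg4d were not called with TMM (−0.02 and −0.22). Atg4d was called lower without quadriceps replicate 2 (−0.40, adjusted p = 0.00881), and both were lower with library totals (−0.77 and −0.98).

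Atg12, the ubiquitin-like partner of Atg5, was higher with TMM, with 19.0, 18.1 and 18.2 CPM in heart and 34.0, 38.2 and 30.9 CPM in quadriceps. Its log2 difference was 0.90 (SE 0.11, adjusted p = 6.19e-05) with TMM but 0.15 (adjusted p = 0.212) with library totals. Atg3, the enzyme that attaches Atg8-family proteins to lipid, was higher with TMM (0.49, adjusted p = 0.00243) and lower with library totals (−0.27, adjusted p = 0.0255). Atg5 likewise was called higher with TMM (0.25, adjusted p = 0.0467) and lower with library totals (−0.50, adjusted p = 0.00226). The TMM call of Atg5 was lost on leaving out any 1 library other than quadriceps replicate 1, with adjusted p between 0.0552 and 0.166. It was also lost with the DESeq2 test (adjusted p = 0.0842), with no count filter, with at least 10 counts in every library and with transcripts summed.

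The activating enzyme Atg7 and the conjugating enzyme Atg10 were lower by both scalings, with TMM differences of −0.52 (adjusted p = 0.0257) and −0.49 (adjusted p = 0.0325). For Atg7, the adjusted p was between 0.0805 and 0.0893 without heart replicate 1, heart replicate 3 or quadriceps replicate 1. For Atg10, it was between 0.0795 and 0.111 without heart replicate 1, heart replicate 3, quadriceps replicate 2 or quadriceps replicate 3. Atg16l1, which holds the conjugate at the membrane, differed by −0.04 (adjusted p = 0.762) with TMM and −0.79 with library totals.

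**Figure D2:**
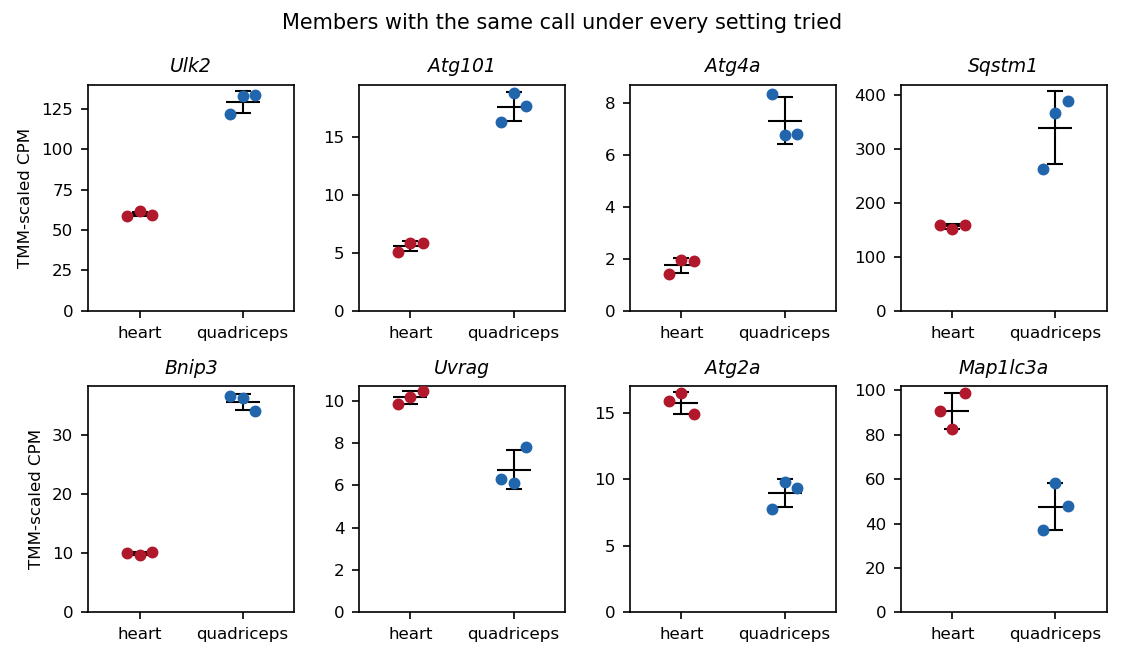
Each panel plots 1 gene, with points for the libraries of sham heart (red, n = 3) and sham quadriceps (blue, n = 3) in TMM-scaled CPM, and bars for the mean and SD. In all 8 panels the points of the tissues are apart, with Ulk2, Atg101, Atg4a, Sqstm1 and Bnip3 higher in quadriceps and Uvrag, Atg2a and Map1lc3a higher in heart.

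The Atg8 family differed in make-up between the tissues: Map1lc3a led in heart and Gabarap in quadriceps. Map1lc3a (chr2:155276297-155278073) gave 90.6, 82.5 and 98.9 CPM in heart and 37.2, 58.1 and 47.8 CPM in quadriceps. The highest quadriceps library was below the lowest heart library. Its log2 difference was −0.93 (SE 0.16, adjusted p = 0.000645) with TMM and −1.69 (adjusted p = 9.84e-06) with library totals. Divided also by transcript length (TMM-scaled RPKM), Map1lc3a was at 87.2 ± 7.9 in heart and 45.9 ± 10 in quadriceps (SD, n = 3).

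Gabarap (chr11:69991143-69994951) gave 63.3, 66.9 and 64.3 CPM in heart and 80.5, 110 and 101 CPM in quadriceps. The libraries did not overlap with TMM, but the scalings disagreed. On the log2 scale quadriceps minus heart was 0.58 (SE 0.12, adjusted p = 0.00242) with TMM and −0.18 (adjusted p = 0.130) with library totals. Map1lc3b, the form most often followed as an autophagosome marker, gave 21.3, 20.5 and 21.7 CPM in heart and 24.2, 31.8 and 28.3 CPM in quadriceps. Quadriceps was higher with TMM (0.41, adjusted p = 0.0116) and lower with library totals (−0.35, adjusted p = 0.00788). Without heart replicate 2 the adjusted p of Map1lc3b with TMM was 0.0506.

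Gabarapl2, with 3.21, 2.68 and 3.19 CPM in heart and 4.01, 4.51 and 4.46 CPM in quadriceps, was the least abundant of the family. It differed by 0.51 (adjusted p = 0.0101) with TMM, by 0.43 (adjusted p = 0.0512) without heart replicate 2 and by −0.24 (adjusted p = 0.128) with library totals. Gabarapl1 gave 38.1, 33.4 and 32.6 CPM in heart and 29.0, 31.2 and 34.0 CPM in quadriceps, so the tissues overlapped. Its difference was −0.15 (adjusted p = 0.254) with TMM and −0.90 (adjusted p = 7.00e-05) with library totals.

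Shares within a library do not depend on scaling between libraries. They use 1 transcript for each gene, of 2 listed for Map1lc3a. Of the summed RPKM of the 5 genes, Map1lc3a made up 48.3 ± 2.5% in heart and 26.6 ± 1.8% in quadriceps (SD, n = 3). Gabarap made up 32.2 ± 2.1% in heart and 50.7 ± 0.41% in quadriceps. Each of these shares was apart in every library, as the plot of the make-up of the family shows. Map1lc3b made up 6.87% in heart and 9.62% in quadriceps, and Gabarapl2 1.72% and 2.61%. Gabarapl1 was at 10.9 ± 1.0% and 10.5 ± 1.3% and overlapped. Per length, the order in heart was Map1lc3a, Gabarap, Gabarapl1, Map1lc3b and Gabarapl2, and neighbours did not overlap. In quadriceps Gabarap came before Map1lc3a, and Gabarapl1 (17.8 ± 1.4 RPKM) and Map1lc3b (16.5 ± 2.2 RPKM) overlapped. The summed RPKM of the family was 173 to 187 in heart and 143 to 195 in quadriceps with TMM, and thus overlapped.

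**Figure D3:**
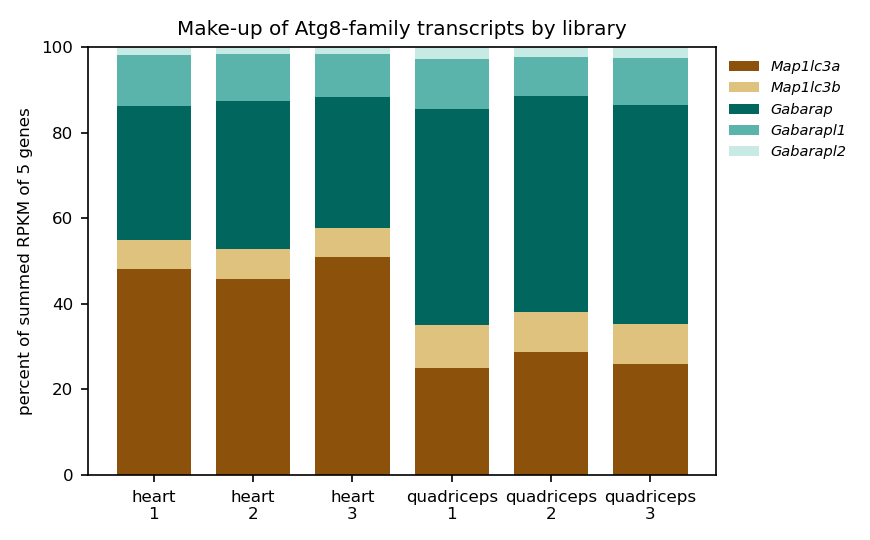
Stacked bars give the percent of the summed TMM-scaled RPKM of 5 Atg8-family genes in each of the 3 sham heart and 3 sham quadriceps libraries. Map1lc3a takes 45.9 to 50.8% in heart and 25.1 to 28.6% in quadriceps, and Gabarap takes 30.8 to 34.7% in heart and 50.4 to 51.2% in quadriceps.

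Among the cargo receptors, Sqstm1 and Bnip3 were higher in quadriceps. Sqstm1 (p62, chr11:50199366-50210827), which brings ubiquitin-tagged proteins to the autophagosome, gave 159, 151 and 159 CPM in heart and 263, 367 and 389 CPM in quadriceps. Quadriceps replicate 1 was lower than the other two but still above every heart library. The log2 difference came to 1.12 (SE 0.15, adjusted p = 0.000139) with TMM and 0.36 (adjusted p = 0.0273) with library totals. In RPKM of the transcript used for each gene, Sqstm1 was the most abundant of the 6 receptors in both tissues. It was at 77.5 ± 2.3 in heart and 168 ± 33 in quadriceps (SD, n = 3). The start of Sqstm1 lies beside that of Mrnip on the other strand.

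Bnip3 (chr7:138890836-138909519), a mitochondrial outer membrane receptor that is induced by low oxygen, had the smallest adjusted p of the 36 genes. It gave 9.99, 9.74 and 10.3 CPM in heart and 36.5, 36.2 and 34.1 CPM in quadriceps. The libraries of each tissue were nearly level and the tissues far apart. On the log2 scale quadriceps minus heart was 1.83 (SE 0.095, adjusted p = 2.51e-07) with TMM and 1.08 (adjusted p = 2.25e-05) with library totals. Its relative Bnip3l (Nix), which clears mitochondria from maturing red cells, gave 13.2, 13.2 and 14.0 CPM in heart and 25.1, 20.2 and 23.5 CPM in quadriceps. Bnip3l differed by 0.77 (SE 0.11, adjusted p = 0.000210) with TMM but by 0.02 (adjusted p = 0.880) with library totals.

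Fundc1, another mitochondrial receptor, was higher with TMM (0.65, adjusted p = 0.00105) and not called with library totals (−0.09, adjusted p = 0.615). Optn, a receptor for bacteria and damaged mitochondria, was lower in quadriceps by both scalings, by −0.26 (adjusted p = 0.0340) with TMM and −1.01 with library totals. The TMM call of Optn was lost on leaving out any 1 library other than quadriceps replicate 2, with adjusted p between 0.0652 and 0.124. It was lost with DESeq2 size factors in edgeR (adjusted p = 0.0579) and kept in the DESeq2 test (adjusted p = 0.0481). Nbr1, a relative of Sqstm1, differed by 0.13 (adjusted p = 0.224) with TMM and −0.62 with library totals. Of the summed RPKM of the 6 receptors, Sqstm1 made up 48.4 ± 1.0% in heart and 62.6 ± 5.1% in quadriceps (SD, n = 3). The share of Optn was 28.5 ± 1.0% in heart and 14.4 ± 1.2% in quadriceps, and that of Bnip3 was 3.58 ± 0.064% and 7.74 ± 1.2%.

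Tfeb, the transcription factor that switches on lysosomal and autophagy genes, was higher with TMM. It gave 9.74, 9.86 and 8.82 CPM in heart and 14.9, 18.3 and 19.0 CPM in quadriceps, with no overlap. The log2 difference came to 0.87 (SE 0.12, adjusted p = 0.000161) with TMM and 0.12 (adjusted p = 0.315) with library totals. Its call was therefore tied to the scaling.

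Ratios between related genes within a library are free of the scaling between libraries, and 7 of 9 such ratios were apart between the tissues. No share over other gene pairs was computed, and 72.6% of all single transcripts tested were also apart. With 3 libraries against 3, an exact two-sided permutation test cannot give a p below 0.1, which is what these 7 gave (0.129 after Benjamini-Hochberg adjustment over the 9). Per base of transcript, Atg4a to Atg4b was 0.286 ± 0.059 in heart and 1.20 ± 0.14 in quadriceps (SD, n = 3). The ratio of Map1lc3a to Map1lc3b was 7.03 ± 0.44 in heart and 2.77 ± 0.24 in quadriceps, and that of Ulk1 to Ulk2 was 0.580 ± 0.054 and 0.235 ± 0.039. By the transcript used for each gene (1 of 2 listed for Ulk1), Ulk2 was the more abundant kinase transcript in every library.

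The ratio of Bnip3 to Bnip3l was 1.37 ± 0.021 in heart and 2.90 ± 0.36 in quadriceps (SD, n = 3). Atg2a exceeded Atg2b in heart (1.85 ± 0.10) and was close to it in quadriceps (1.05 ± 0.032). The ratio of Gabarapl1 to Gabarap was 0.339 in heart and 0.206 in quadriceps, and that of Wipi1 to Wipi2 was 8.11 and 6.08. The ratios of Atg4d to Atg4b (exact permutation p = 0.4) and Gabarapl2 to Gabarap (exact permutation p = 0.9) overlapped.

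**Figure D4:**
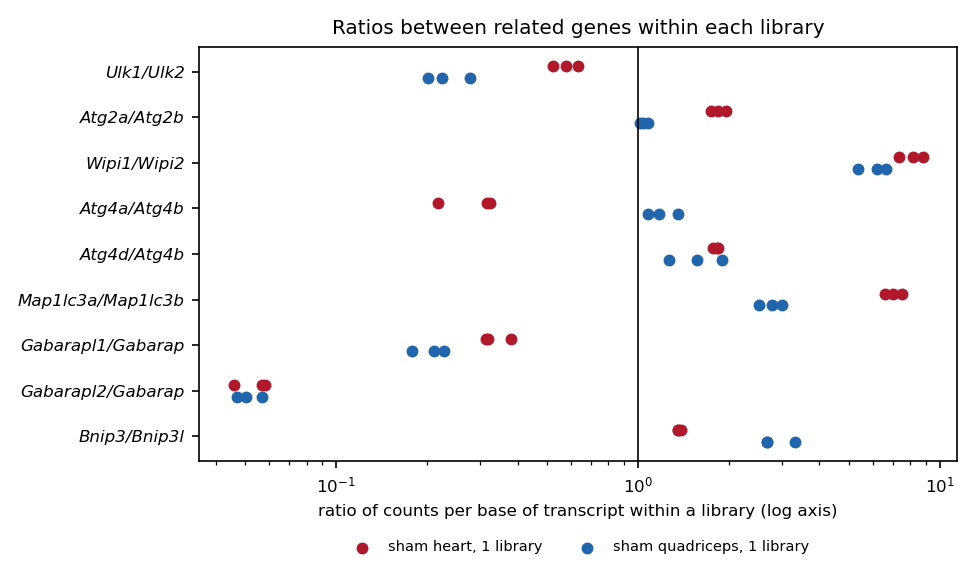
For 9 pairs of related genes, the log x axis gives the ratio of their counts per base of transcript within each library, with red points for sham heart and blue points for sham quadriceps (n = 3 each). The colours are apart for 7 pairs, and they mix for Atg4d/Atg4b and Gabarapl2/Gabarap.

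Of 74 other genes of the pathway, 73 were tested, and Calcoco2 was at 0 counts in all 6 libraries. With TMM 31 (42.5%) were called higher, 19 (26%) lower and 23 not called, beside 32.2% and 34.4% of all transcripts called higher and lower. With library totals 13 (17.8%) were higher, 47 (64.4%) lower and 13 not called, near the 13.3% and 62.6% of all transcripts. Among 19 further machinery genes, 10 were higher and 2 lower with TMM (3 and 11 with library totals), from Epg5, a tether between autophagosome and lysosome (1.67), to Tecpr1 (−0.80). Among 17 tested receptors and their regulators, 5 were higher and 5 lower with TMM (3 and 12 with library totals). Stbd1, which binds glycogen, differed by 6.77 with 0.840, 0.596 and 0.419 CPM in heart and 55.5, 84.1 and 66.0 CPM in quadriceps. The chaperone partner Bag3 was lower in quadriceps by −0.87 with TMM and −1.63 with library totals.

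Of 15 genes of the mTOR and AMPK kinases that act upstream of the Ulk complex, 8 were higher and 6 lower with TMM (6 and 8 with library totals). Prkag3, the regulatory AMPK subunit of fast skeletal muscle, differed by 6.54, with 1.97, 1.37 and 1.82 CPM in heart and 103, 194 and 182 CPM in quadriceps. Prkab1, another AMPK subunit, was lower by −1.51 with TMM. Among 15 lysosomal genes 7 were higher and 3 lower with TMM (0 and 10 with library totals), and their TMM range was narrow, from Ctsl (−0.49) to Rab7 (0.85). Among 7 transcription factors, 1 was higher and 3 lower with TMM (1 and 6 with library totals). Foxo4 was higher (1.88) and Foxo3 lower (−2.06), and with library totals they were at 1.12 and −2.81. Mitf and Tfe3, relatives of Tfeb, were lower with TMM (−1.06, adjusted p = 1.29e-05, and −0.56, adjusted p = 0.00436) and with library totals (−1.81 and −1.32).

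Markers of other cell types also differed between the tissues, and their part in these results was not tested. All 6 endothelial markers were lower in quadriceps, with a summed RPKM of 126 to 135 in heart and 42.4 to 49.6 in quadriceps. All 4 erythroid markers (251 to 298 against 74.2 to 92.7) and 5 of 6 macrophage markers (24.8 to 26.7 against 10.3 to 17.0) were lower as well. Of 6 fibroblast markers, 3 were lower and 0 higher (229 to 253 against 172 to 237), and of 4 smooth muscle markers 1 was lower and 1 higher with TMM, and 2 lower and 0 higher with library totals (31.1 to 39.5 against 24.2 to 30.2). All 4 adipocyte markers were higher in quadriceps (0.296 to 1.26 against 10.7 to 90.1), and Adipoq ran from 5.31 to 43.5 CPM over the quadriceps libraries. Lep was at 0 counts in heart replicate 3, and each of the other markers of these cell types had counts in every library.

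Reads of overlapping genes are a limit for some of the 36, and the sources do not state whether strand was used in counting. On GRCm38, 18 of the 36 overlap another annotated gene, and 7 overlap a protein-coding gene: Becn1, Atg2b, Atg9a, Atg4b, Atg4d, Map1lc3b and Sqstm1. Map1lc3b is overlapped by the protein-coding gene Gm20388 on the same strand, which counting by strand would not separate.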

How the data were processed

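RNA of sham heart and sham quadriceps (n = 3 libraries each) was sequenced. After trimming (Trim Galore) and alignment to mm10 (STAR), the authors counted reads per RefSeq transcript with Rsubread and deposited these raw counts. Versions and the strand setting are not given in the sources used here. The authors also deposited RPKM values, which equal the count divided by transcript length and library total, and the lengths in bases. Columns of the authors' own fold changes and p-values were not used.

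The tool was edgeR 4.0.16 under R 4.3.3, a package the study also used (quasi-likelihood test, TMM, Benjamini-Hochberg adjustment over every transcript that entered, threshold 0.05). A transcript entered if over 5 counts were found in 2 or more of the libraries, which held for 24280. The test was first tried on simulated data in which as many transcripts rose as fell. That trial cannot show which scaling is right for these libraries. SE is the standard error of the log2 difference, worked back from the statistic of the quasi-likelihood test, and SD is over 3 libraries. Alternatives used DESeq2 1.42.0 and limma 3.58.1. Gene spans are from GENCODE on GRCm38 and promoter windows from RefSeq GRCm38.p6. Processed values were read with Python 3.11.15.

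The labels number both tissues 1 to 3 without stating that a number marks a mouse. Same-numbered libraries did not deviate together (correlations 0.023, −0.097 and −0.0093), so no block was used. Libraries of a tissue differed by more than sampling noise, and by more in quadriceps. Chi-square per degree of freedom was 7.16 to 10.4 between heart libraries and 32.2 to 56.6 between quadriceps libraries. The members, the gene lists and the motifs were chosen with earlier results of these data known. Genes were given library by library where the adjusted p was under 0.05 with a log2 difference of at least 1 and the same sign under 3 scalings, and for the Atg8 family, Tfeb, Sqstm1, Bnip3 and Bnip3l. Of the other lists, the genes with the largest rise and fall were named. Atg2a, Uvrag, Atg12, Rb1cc1, Mitf, Tfe3, the ratios and shares and the share of genes with 1 call in every setting were added after values were seen. No member had fewer than 67 counts in a library.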

Additional observations from a re-analysis of the deposited data

How the results depend on the processing

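Directions changed mainly with the scaling. With library totals, and with limma on log2(RPKM + 0.5), log2(RPKM + 1) or log2(RPKM + 0.1), which use the same totals, the 36 genes gave 5 higher and 24 lower calls and the 74 related genes 13 and 47. In that order of settings, the median of the 36 genes was −0.51, −0.51, −0.43 and −0.57, that of all transcripts −0.80, −0.49, −0.38 and −0.70, and that of the related genes −0.57, −0.48, −0.44 and −0.57. All transcripts gave 3241, 3201, 3194 and 3218 higher and 15203, 15319, 15322 and 15365 lower calls. Becn1 was at −0.44, −0.43, −0.42 and −0.44, Rb1cc1 at −0.44, −0.61, −0.56 and −0.66, Pik3c3 at −0.46, −0.41, −0.38 and −0.45, and Atg14 at −0.74, −0.59, −0.49 and −0.71. Atg2b was at −0.75, −0.55, −0.43 and −0.70, Atg9a at −0.40, −0.38, −0.36 and −0.40, Wipi2 at −0.53, −0.47, −0.43 and −0.52, and Atg3 at −0.27, −0.25, −0.24 and −0.26. Atg5 was at −0.50, −0.45, −0.41 and −0.49, Map1lc3b at −0.35, −0.34, −0.33 and −0.35, and Gabarap at −0.18 in each. Gabarapl2 was at −0.24, −0.21, −0.19 and −0.23, Nbr1 at −0.62, −0.61, −0.59 and −0.62, and Fundc1 at −0.088, −0.11, −0.099 and −0.11.

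Genes that lay close to 0 changed sign under other settings, for which the cause was not tested. With no count filter, at least 10 counts in every library, and transcripts summed, Atg14 was at −0.031, −0.061 and −0.0045 and Atg2b at −0.029, −0.060 and −0.0030. Atg4b was at 0.0063 with DESeq2 size factors and 0.0066 with the DESeq2 test. On leaving out 1 library, log2 differences ran from −0.17 to 0.65 for Rb1cc1, −0.23 to 0.11 for Atg13, −0.035 to 0.066 for Atg14, −0.065 to 0.11 for Atg2b, −0.048 to 0.036 for Atg4b and −0.13 to 0.062 for Atg16l1. Between 3 (without heart replicate 1) and 8 (without quadriceps replicate 2) genes were then called lower. Heart replicate 3 and quadriceps replicate 3 each left 4 lower calls when left out. Over all transcripts, lower calls were 7471 without heart replicate 1 and 8111 without quadriceps replicate 2, beside 8354 with every library. Between 11 (without heart replicate 2) and 18 (without quadriceps replicate 1) genes were called higher, beside 16 with every library. Over all transcripts, these fits called 6987 and 8146 higher, beside 7828 with every library. Of the 23 called genes, 14 stayed called without any 1 library, and no such share over all transcripts was computed.

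A log2 difference of at least 1 left 5 higher and 0 lower of the 36 genes, 12 and 3 related genes, and 3881 and 4983 transcripts. An unadjusted p under 0.05 with a difference beyond 2, the study's threshold, left 1 and 0, 4 and 1, and 1699 and 2097. With 1 transcript per gene or with transcripts summed, fewer features were tested, and 4744 and 4714 were higher and 5059 and 5063 lower. With a replicate block, 14 of the 36 genes were higher and 6 lower. Of the 24280 transcripts tested, 7541 were then called higher, and no share called lower was computed for this setting. The block lost the calls of Atg9a (adjusted p = 0.0529), Atg5 (adjusted p = 0.116) and Optn (adjusted p = 0.101), while no other call among the 36 changed. Each fit without 1 library rests on 2 libraries of that tissue, and the calls of 9 genes were lost in at least 1 of these fits. For this count, too, no share over all transcripts was computed.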
